A study of Mus musculus with 18 samples.

Results

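Double-positive (DP) dendritic cells, which carry both CD11b and CD103, were compared with CD103+ single-positive dendritic cells (DCs) of the mouse small intestinal lamina propria. The comparison took the 3 libraries of each sort, 6 of the 18 RNA-seq libraries of the series, and covered every gene with enough counts to be tested. The mice were C57BL/6J with the genotype CD11a KO, in the compared groups and in all others, so that neither group is a wild-type control and no effect of the genotype can be read from the values. The labels give no age or sex, and their treatment text covers both steady-state and Salmonella-infected mice of several experiments without saying which these were. The shared protocol sorts DCs as live, single, CD45+, CD64-, MHCII high and CD11c+ cells after removal of the Peyer's patches. It spells out CD11b+ gates with and without CD103 but no gate for CD103+ single-positive cells, and does not say that it was used for the CD11a KO libraries. The other 12 libraries were CD11b+ DCs of the lamina propria and the 3 sorts of the intestinal lymph node, and they entered the fit of the spread and a test of the difference between tissues.

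Conventional DCs fall into a pair of lineages. The cDC1 lineage depends on the transcription factors IRF8 and BATF3, carries XCR1 and CLEC9A and is known for cross-presentation of antigen from dead cells to CD8 T cells, and in the gut it is found among CD103+ CD11b- cells. The cDC2 lineage depends on IRF4, carries SIRPα and mainly serves CD4 T cells, and in the small intestine many of its cells carry CD103 together with CD11b and are known for carrying luminal antigen to the lymph node and for favouring Th17 responses.

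Reads assigned to genes numbered from 23999555 to 46901985 per library in CD103+ DCs and from 26455576 to 29054045 in DP DCs. Levels are given as CPM, counts relative to the library size after TMM scaling, and the values of 3 libraries stand in the order of replicates 1, 2 and 3. Whether the replicates came from separate animals is not stated, so p-values measure the spread between these samples. Of the 54232 genes of the deposited table, 17074 had enough counts. A gene was called higher or lower when its adjusted p was under 0.01 (edgeR quasi-likelihood test with Benjamini-Hochberg adjustment over all genes tested, the test behind every adjusted p below) and its fold change was over 2, which is 1 on the log2 scale. All log2 fold changes are of DP over CD103+ and all errors of log2 values are standard errors (SE).

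Between the sorts 2326 genes were called, 13.6% of those tested. Of these, 1383 were higher (8.10%) and 943 lower (5.52%) in DP DCs, and the median log2 fold change over all genes tested was 0.0091. Differences over 4-fold were seen for 863 of the higher and 491 of the lower genes, and differences over 16-fold for 336 and 177. The 3 libraries of one sort lay wholly above those of the other for 1377 of the 1383 higher genes and for 941 of the 943 lower genes, where over all genes tested DP lay wholly above in 4057 and wholly below in 3814. Nearly all called genes thus had libraries that did not overlap, and where this is given for called genes below it adds no support to the call. Protein-coding genes made up 1162 of the higher and 837 of the lower genes.

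**Figure D1:**
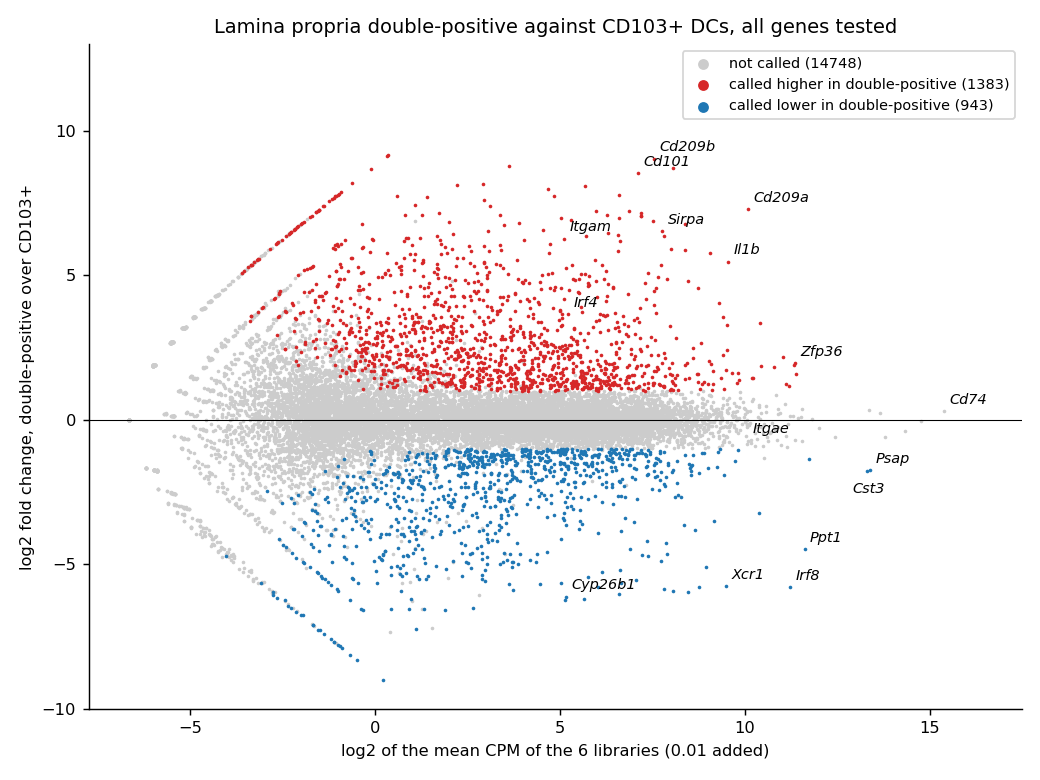
Each point is 1 of the 17074 genes tested, with the log2 of its mean CPM over the 6 libraries (0.01 added) on the x axis and the log2 fold change of DP over CD103+ DCs on the y axis. Red points are the 1383 genes called higher and blue points the 943 called lower in DP DCs, and both reach from low to high levels; the diagonal rows at the left are genes with counts in few libraries.

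Itgal (ENSMUSG00000030830, chr7:127296260-127335138, plus strand, GRCm38), which encodes CD11a and is the gene named in the genotype, had reads in each of the 6 libraries. It had 18.4, 17.6 and 20.3 CPM in the DP and 25.01, 26.6 and 21.4 CPM in the CD103+ libraries. The log2 fold change was -0.37 ± 0.22 (adjusted p = 0.21), and counts per gene do not show whether the reads came from an altered or an intact allele.

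The genes of the sorting antibodies followed the sort for CD11b. Itgam (chr7:128062640-128118491, plus strand), which encodes CD11b, had 65.9, 63.2 and 76.4 CPM in the DP libraries and 0.601, 0.839 and 1.26 CPM in the CD103+ libraries. The groups were far apart, at a log2 fold change of 6.26 ± 0.35 (adjusted p = 3.41e-10), and CD11b+ DCs had 61.3 ± 6.44 CPM (SD, n = 3). Itgae (chr11:73090583-73147446, plus strand), which encodes CD103, had 826, 714 and 896 CPM in DP and 1333, 1238 and 1440 CPM in CD103+ DCs. Its libraries did not overlap, but the log2 fold change of -0.72 ± 0.30 was not called (adjusted p = 0.077), and both sorts were above the 169 ± 108 CPM of CD11b+ DCs. Of the other gate genes, Fcgr1, which encodes CD64, was low in both sorts and called higher in DP, at 1.53, 1.15 and 1.46 CPM against 0.389, 0.258 and 0.122 CPM. Itgax (CD11c), Ptprc (CD45) and H2-Ab1 (MHC class II) were not called, with log2 fold changes of 0.55, 0.65 and -0.03.

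The markers of cDC1 were lower in DP DCs for 17 of the 22 genes of the list, and none was higher. Their median log2 fold change was -4.15, and the share called was 77.3%, against 13.6% of all genes. Irf8 (chr8:120736358-120756694, plus strand), the transcription factor of the lineage, had 4441, 4969 and 4540 CPM in the CD103+ libraries and 80.8, 92.6 and 77.4 CPM in the DP libraries. This was a 55.6-fold difference with a log2 fold change of -5.80 ± 0.11 (adjusted p = 4.45e-16), and CD11b+ DCs had 151 ± 6.29 CPM. Xcr1 (chr9:123852315-123862029, minus strand), the receptor of the chemokine XCL1, had 1410, 1399 and 1391 CPM in CD103+ and 27.3, 24.9 and 25.1 CPM in DP DCs. The 3 CD103+ libraries lay within a narrow range and the log2 fold change was -5.76 ± 0.17 (adjusted p = 1.03e-13). Clec9a, the receptor for actin of dead cells, had 262, 216 and 297 CPM in CD103+ and 5.62, 4.54 and 6.32 CPM in DP DCs (-5.55 ± 0.26). Cadm1, an adhesion molecule, had 504, 521 and 535 CPM against 8.60, 7.96 and 9.21 CPM (-5.92 ± 0.25). Cd8a, the CD8 alpha chain, had 166, 200.2 and 221 CPM against 2.72, 4.85 and 3.96 CPM (-5.67 ± 0.29). In all 5 genes the DP libraries were far below every CD103+ library.

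The members of the cDC1 list that were not called included its best known partner factor. Batf3, needed for cDC1 development, had 143, 156 and 145 CPM in CD103+ and 113, 134 and 113 CPM in DP DCs, and its log2 fold change was -0.30 ± 0.10 (adjusted p = 0.024). Id2 was at 1044 ± 50.5 CPM in CD103+ and 569.9 ± 21.5 CPM in DP DCs (log2 fold change -0.87 ± 0.18), under the 2-fold limit although its adjusted p was 0.0012. Cd24a was at a like level in both, with 346 and 347 CPM, and the 3 and 3 libraries overlapped. Itgae and Wdfy4, a gene of cross-presentation, made up the remaining 2, and Wdfy4 stood close to the limit. Its log2 fold change was -0.99 ± 0.14, and with the replicate letter as a block it was called in the fit of all lamina propria libraries (-1.002) but not in that of the 6 compared (-0.992). It was also called without replicate 2 of the DP libraries (-1.01) and without replicate 2 of the CD103+ libraries (-1.02).

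The markers of cDC2 were higher in DP DCs for 18 of 22 genes and lower for 1, with a median log2 fold change of 4.21. The share called was 86.4%, against 13.6% of all genes. Sirpa, the inhibitory receptor for CD47, had 429, 415 and 446 CPM in DP and 4.74, 4.73 and 4.41 CPM in CD103+ DCs. Its log2 fold change was 6.53 ± 0.18 (adjusted p = 6.99e-14), and CD11b+ DCs had 519 ± 86.1 CPM. Irf4 (chr13:30749226-30766976, plus strand) had 75.1, 70.9 and 61.5 CPM in DP and 6.05, 5.29 and 5.22 CPM in CD103+ DCs, a 12.5-fold difference (3.65 ± 0.17). Epcam, an adhesion molecule shared with epithelium, had 412, 421 and 524 CPM against 37.4, 35.8 and 69.1 CPM (3.26 ± 0.27), and CD11b+ DCs had 209.8 ± 84.2 CPM. Csf1r, the receptor for macrophage colony-stimulating factor, had 136, 146 and 145 CPM against 5.27, 4.000 and 5.63 CPM (4.85 ± 0.30), with 572 ± 163 CPM in CD11b+ DCs. The member called lower was Clec12a, an inhibitory lectin receptor for uric acid crystals, with 49.7 CPM in DP and 195 CPM in CD103+ DCs (-1.97 ± 0.23). Notch2, Esam and Dtx1 were not called, and Notch2 was at 28.7 ± 3.81 CPM in DP and 31.9 ± 4.13 CPM in CD103+ DCs, with libraries that overlapped. The summed level of the cDC1 list was 2954 to 3195 CPM in the DP and 23162 to 23972 CPM in the CD103+ libraries. That of the cDC2 list was 5716 to 6229 CPM and 466 to 561 CPM. The lists were chosen with earlier results of these data known, and the cDC1 list holds the sorting gene Itgae. Their direction is therefore a description and no independent check of the sorts.

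**Figure D2:**
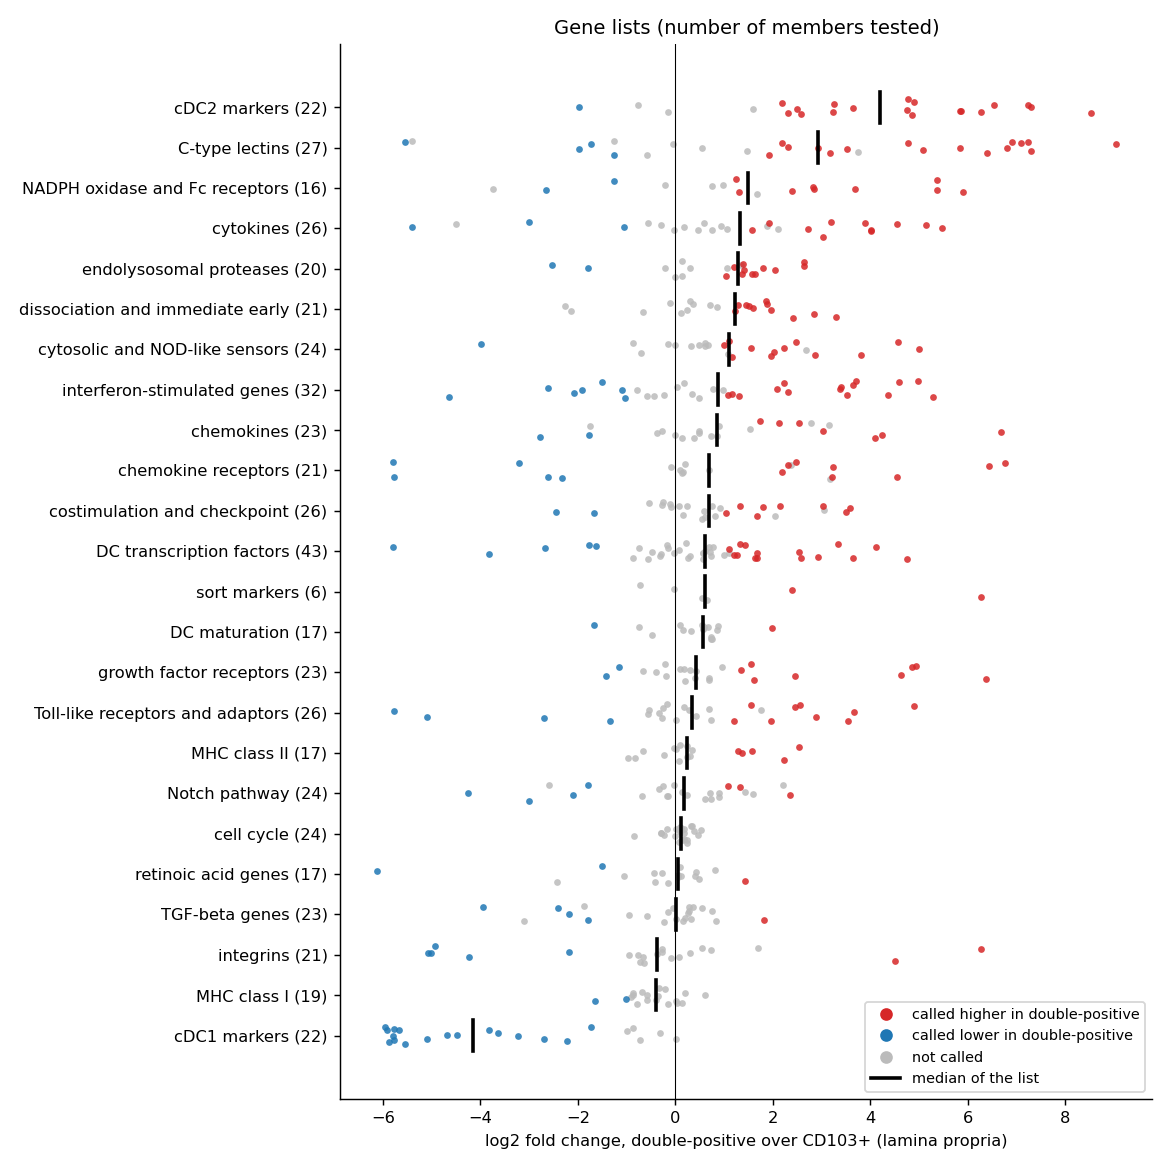
Each point is a gene of the list named at the left, with the number of members tested in brackets, at its log2 fold change of DP over CD103+ DCs. Red and blue points were called higher and lower, grey points were not called, and the black bars are the medians, which run from -4.15 for the cDC1 markers to 4.21 for the cDC2 markers.

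The largest folds included lectins, a fimbriae receptor and enzymes. Among called genes whose libraries did not overlap and whose higher group reached 10 CPM, the 12 with the largest folds in favour of DP DCs were Cd209b, St18, Gp2, Cd101, Angpt4, Tmem273, Cd209c, Mmp12, Fam189a2, Zfp658, Clec4g and Cd209a, with log2 fold changes from 7.30 to 9.03. Cd209b, the C-type lectin SIGN-R1, had 360.0, 306 and 440.3 CPM in DP and 0.707, 0.344 and 1.26 CPM in CD103+ DCs. Gp2, a receptor for bacterial fimbriae that is best known from M cells and pancreas, had 444, 380.4 and 775 CPM against 1.52, 0.495 and 2.16 CPM. Cd101, an inhibitory immunoglobulin superfamily receptor, had 262, 253 and 307 CPM against 1.49, 0.430 and 0.408 CPM. In each of these the lowest DP library was far above the highest CD103+ library, and the log2 fold changes were 9.03 ± 0.51, 8.71 ± 0.83 and 8.52 ± 0.30. CD11b+ DCs stood between the sorts, at 54.2 ± 14.1, 40.01 ± 29.1 and 84.1 ± 3.59 CPM. Mmp12, the macrophage elastase, had 209.7, 150.1 and 213 CPM in DP and 1.27, 0.280 and 1.31 CPM in CD103+ DCs, with 96.8, 68.2 and 200.3 CPM in CD11b+ DCs. Angpt4, a ligand of the receptor TIE2, had 14.8, 11.4 and 18.99 CPM in DP DCs, 0, 0.0860 and 0.0408 CPM in CD103+ DCs and 0.682, 0.622 and 1.64 CPM in CD11b+ DCs. St18, a zinc finger transcription factor, had 26.5, 24.3 and 22.99 CPM in DP DCs and 0.141, 0.0215 and 0 CPM in CD103+ DCs, where the fold rests on few counts.

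In the other direction the 12 were Ptprh, Fzd1, Ptgis, Cyp26b1, Plpp1, Rab7b, Cadm1, Gcsam, Gpr141b, Cxcr3, Irf8 and Tlr12, with log2 fold changes from -6.51 to -5.77. Ptprh, a receptor-type tyrosine phosphatase, had 11.5, 11.7 and 13.99 CPM in CD103+ and 0.298, 0.102 and 0 CPM in DP DCs. Fzd1, a receptor of Wnt ligands, had 74.6, 65.8 and 65.5 CPM against 1.08, 1.12 and 0.4997 CPM. Cyp26b1, which degrades retinoic acid, had 86.4, 74.7 and 51.6 CPM against 1.56, 0.678 and 0.821 CPM. CD11b+ DCs were far below CD103+ DCs in these genes too, at 0.460 ± 0.0254, 0.763 ± 0.302 and 0.902 ± 0.399 CPM. Ptgis, the prostacyclin synthase, had 85.2, 88.3 and 123 CPM in CD103+ and 1.27, 1.19 and 1.61 CPM in DP DCs. Plpp1, a phospholipid phosphatase, had 169.8, 172 and 225 CPM against 2.496, 1.86 and 4.25 CPM. Rab7b, a small GTPase of late endosomes, had 639.9, 773 and 669 CPM against 10.95, 11.3 and 11.2 CPM.

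**Figure D3:**
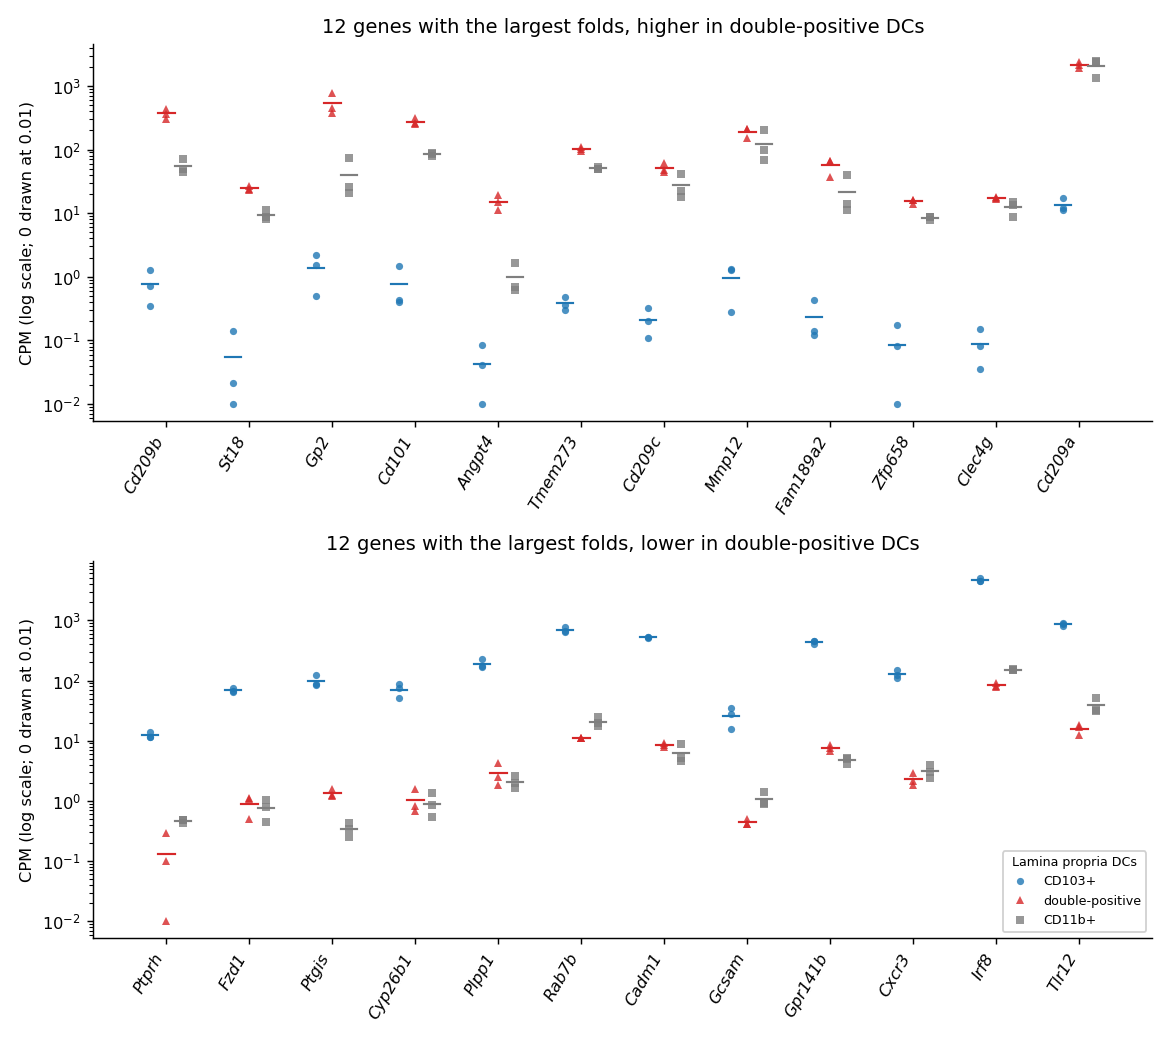
CPM on a log scale in each of the 3 libraries of CD103+ (blue circles), DP (red triangles) and CD11b+ DCs (grey squares) of the lamina propria, for the 12 genes with the largest folds in each direction, with bars at the group means and values of 0 drawn at 0.01. That DP and CD103+ libraries do not overlap was a condition for the choice of the 24 genes.

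The promoters of the first 3 genes in each direction with an entry are shown because these genes set the sorts apart most. They are RefSeq sequences of GRCm38.p6, each 300 bases from 250 before to 50 after the annotated start, written 5′ to 3′ on the strand of the gene, which is the minus strand for all 6. St18 and Ptgis ranked among the first 3 and had no entry. Capitals mark matches, on either strand, to any of 6 motifs searched: the ETS-IRF composite GGAANNGAA, the IRF motif GAAANNGAA, the AP-1 motif TGANTCA, the RBPJ motif TGGGAA, the RUNX motif TGTGGT and the NF-kB motif GGGNNTTCC.
Cd209b (chr8:3926792-3927091): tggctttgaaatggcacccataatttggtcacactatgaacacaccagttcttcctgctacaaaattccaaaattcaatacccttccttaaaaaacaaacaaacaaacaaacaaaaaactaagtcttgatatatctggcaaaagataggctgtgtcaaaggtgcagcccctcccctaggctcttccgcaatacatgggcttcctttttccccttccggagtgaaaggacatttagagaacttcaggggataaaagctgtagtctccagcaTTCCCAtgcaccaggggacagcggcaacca
Gp2 (chr7:119459223-119459522): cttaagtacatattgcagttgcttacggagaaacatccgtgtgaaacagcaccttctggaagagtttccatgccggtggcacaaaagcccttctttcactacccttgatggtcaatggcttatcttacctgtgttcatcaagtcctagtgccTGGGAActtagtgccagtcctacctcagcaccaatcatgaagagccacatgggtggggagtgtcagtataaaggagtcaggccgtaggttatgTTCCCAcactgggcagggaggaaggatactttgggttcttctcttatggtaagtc
Cd101 (chr3:101029504-101029803): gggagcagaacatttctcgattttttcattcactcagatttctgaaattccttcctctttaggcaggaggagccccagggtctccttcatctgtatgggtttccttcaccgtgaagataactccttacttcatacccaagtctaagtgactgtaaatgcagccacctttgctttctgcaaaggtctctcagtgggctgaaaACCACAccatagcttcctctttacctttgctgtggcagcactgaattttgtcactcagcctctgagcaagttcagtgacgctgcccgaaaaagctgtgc
Ptprh (chr7:4603992-4604291): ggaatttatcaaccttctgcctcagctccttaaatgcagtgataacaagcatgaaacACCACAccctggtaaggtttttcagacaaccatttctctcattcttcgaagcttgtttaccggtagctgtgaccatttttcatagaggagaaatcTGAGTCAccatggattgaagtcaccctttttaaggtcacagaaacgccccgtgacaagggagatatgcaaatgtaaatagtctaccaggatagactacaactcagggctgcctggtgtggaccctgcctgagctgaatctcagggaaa
Fzd1 (chr5:4758167-4758466): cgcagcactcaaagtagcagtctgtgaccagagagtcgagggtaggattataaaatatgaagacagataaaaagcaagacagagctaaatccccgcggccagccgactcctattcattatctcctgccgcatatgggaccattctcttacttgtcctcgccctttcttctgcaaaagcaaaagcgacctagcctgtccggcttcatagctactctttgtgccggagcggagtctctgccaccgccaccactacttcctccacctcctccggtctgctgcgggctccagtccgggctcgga
Cyp26b1 (chr6:84593761-84594060): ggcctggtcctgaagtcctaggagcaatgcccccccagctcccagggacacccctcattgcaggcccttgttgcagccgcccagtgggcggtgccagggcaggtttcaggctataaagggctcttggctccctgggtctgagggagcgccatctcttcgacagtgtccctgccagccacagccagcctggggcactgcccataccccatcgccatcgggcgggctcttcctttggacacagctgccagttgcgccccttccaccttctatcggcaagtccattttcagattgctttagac
The Cd209b window held 1 RBPJ match, beginning 20 bases after the start, and the Gp2 window held 2, at 98 and 5 bases before it. The Cd101 window held 1 RUNX match, 49 bases before the start. The Ptprh window held 1 AP-1 match and 1 RUNX match, at 98 and 193 bases before the start, and the windows of Fzd1 and Cyp26b1 held none of these letters.

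Over all genes the same windows were searched for 11442 of the 17072 symbols tested, of which 993 were called higher and 688 lower. The IRF motif was held by 11.6% of windows of higher genes, 8.13% of windows of lower genes and 7.58% of all (1323, 886 and 14543 windows, with more than 1 for genes with several starts). The ETS-IRF composite was held by 9.15%, 7.22% and 7.64%, and the AP-1 motif by 8.16%, 5.87% and 5.54%. The RBPJ motif was held by 26.3%, 22.6% and 23.4%, the RUNX motif by 17.4%, 14.6% and 13.7%, and the NF-kB motif by 7.63%, 6.10% and 7.30%. Windows of the IRF motif and of the ETS-IRF composite can hold the same bases where the letters overlap, and the shares are given as a description with no test.

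Of the 12 genes with the largest folds in favour of DP DCs, Cd209a, Cd209b, Cd209c and Clec4g are neighbours on chromosome 8. The Cd209 genes encode relatives of the human lectin DC-SIGN, which binds mannose and fucose of microbes. Cd209a (chr8:3743397-3748984) had the highest level of the cluster, with 2360, 2130 and 1903 CPM in DP and 17.4, 12.1 and 11.1 CPM in CD103+ DCs (7.30 ± 0.38, adjusted p = 5.71e-10). Cd209c had 60.8, 43.8 and 47.01 CPM against 0.318, 0.108 and 0.204 CPM (7.97 ± 0.49). Clec4g, at the other side of Cd209a, had 16.6, 17.3 and 17.8 CPM against 0.0354, 0.151 and 0.0816 CPM (7.41 ± 0.52). For these genes, which were chosen with libraries that did not overlap, CD11b+ DCs had 2064 ± 637, 27.2 ± 11.99 and 12.3 ± 3.38 CPM. Between Cd209a and Cd209b lie Cd209e, which was called higher at 2.18 CPM against 0.435 CPM (2.37 ± 0.65, adjusted p = 0.0086), and Cd209d, which was not called at 0.826 CPM against 0.303 CPM (1.47 ± 0.64). The call of Cd209e was lost with the replicate letter as a block (2.35, adjusted p = 0.029, with all lamina propria libraries and 2.49, adjusted p = 0.036, with the 6 compared), without replicate 2 or 3 of the DP libraries (1.92 and 2.48) and without replicate 2 or 3 of the CD103+ libraries (1.87 and 2.22). Cd209d was the member in which CD11b+ DCs stood highest against DP, at 25.6 CPM. Fcer2a, beyond Clec4g, was at 0.570 and 0.189 CPM and was not called, but was called without replicate 1 of the CD103+ libraries, the only one of these with counts (adjusted p = 1.70e-04). Cd209f and Cd209g, with 16 against 2 and 11 against 4 counts over the 3 libraries, were too low to test. Copies in the cluster are alike in sequence, so that the split of reads among them is uncertain.

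**Figure D4:**
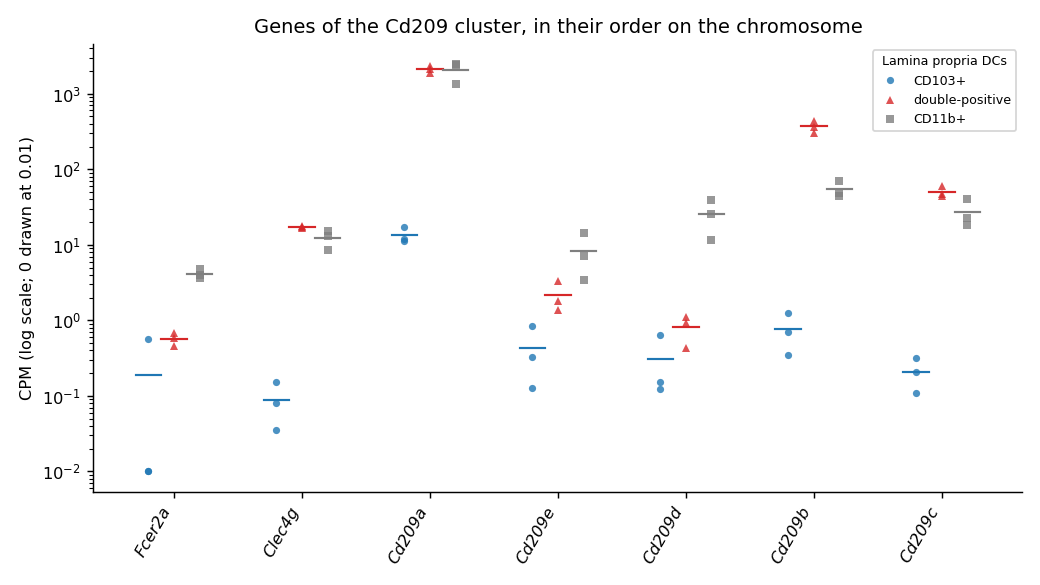
CPM on a log scale in each library of CD103+, DP and CD11b+ DCs of the lamina propria for the 7 tested genes of the Cd209 cluster, in the order in which they lie on the chromosome, with bars at the group means and values of 0 drawn at 0.01. DP libraries lie above CD103+ libraries in Clec4g, Cd209a, Cd209e, Cd209b and Cd209c, and overlap with them in Fcer2a and Cd209d.

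Genes were also ranked by the difference in mean CPM. The 8 largest gains of DP DCs were in Zfp36, Junb, Mdh2, Fth1, Rgs1, Cd209a, Lyz2 and Gsn. Mdh2, the mitochondrial malate dehydrogenase, had 3229, 3440 and 3561 CPM in DP and 728, 794 and 751 CPM in CD103+ DCs (2.17 ± 0.10). Fth1, the ferritin heavy chain, had 3882, 3722 and 4349 CPM against 1263, 1365 and 1385 CPM (1.57 ± 0.10). Rgs1, a regulator of G protein signalling in chemokine responses, had 2541, 2126 and 2711 CPM against 233, 151 and 346 CPM (3.34 ± 0.31). Gsn, the actin-severing protein gelsolin, had 3193, 2946 and 3484 CPM against 1403, 1467 and 1450 CPM (1.16 ± 0.14). This ranking too took only called genes whose libraries did not overlap. The 8 largest losses were in Psap, Cst3, Ppt1, Irf8, Plbd1, Naaa, Xcr1 and Mpeg1. Psap, the precursor of the saposins of lysosomal lipid breakdown, had 17189, 16335 and 16100 CPM in CD103+ and 5671, 4338 and 4750 CPM in DP DCs (-1.75 ± 0.18). Cst3, the protease inhibitor cystatin C, had 15640, 16101 and 15262 CPM against 4897, 4579 and 4153 CPM (-1.79 ± 0.11). Ppt1, the lysosomal palmitoyl-protein thioesterase, had 5914, 5662 and 6348 CPM against 263, 261 and 281 CPM (-4.48 ± 0.15). The lysosomal acid amidase Naaa and the pore-forming protein Mpeg1 were 9.42 and 11.3 times lower in DP DCs.

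Of 43 transcription factors of DCs, 15 were higher and 5 lower in DP DCs, with a median log2 fold change of 0.61. The share called was 46.5%, against 13.6% of all genes. Zeb2, a factor known from cDC2 development, had 37.1, 29.04 and 24.98 CPM in DP and 1.56, 0.409 and 1.63 CPM in CD103+ DCs (4.76 ± 0.32). Prdm1, which encodes BLIMP1, had 25.4, 10.4 and 30.7 CPM against 1.63, 0.731 and 1.55 CPM (4.13 ± 0.42). Klf4, needed by a part of cDC2, had 73.2, 63.04 and 42.97 CPM against 9.62, 9.44 and 11.02 CPM (2.58 ± 0.22). The groups did not overlap in any of them, and Cebpa, Cebpb, Spib, Runx1 and Rel were called in the same direction. Besides Irf8, the lower factors were Pparg (-3.81 ± 0.49), Mycl (-2.68 ± 0.14), Bcl6 (-1.76 ± 0.16) and Klf2. Mycl, a MYC relative of cDC1, had 539, 555 and 512 CPM in CD103+ and 82.1, 88.9 and 79.6 CPM in DP DCs, while Bcl6 had 100.2, 101 and 102 CPM against 33.5, 25.04 and 30.8 CPM. Klf2 lost its call with the replicate letter as a block, at -1.71 (adjusted p = 0.029) with all lamina propria libraries and -1.77 (adjusted p = 0.051) with the 6 compared, in place of -1.62 (adjusted p = 7.40e-04). Zbtb46 and Spi1, factors of all conventional DCs, were not called, with log2 fold changes of 0.26 ± 0.08 and 0.61 ± 0.09.

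The Toll-like receptors (TLRs) were divided between the sorts. Of 26 receptors and adaptors 9 were higher and 4 lower in DP DCs, with a median of 0.35. The share called was 50%, against 13.6% of all genes. Tlr3, the receptor for double-stranded RNA, had 971, 974 and 930.0 CPM in CD103+ and 30.1, 27.8 and 26.02 CPM in DP DCs (-5.10 ± 0.15). Tlr11 and Tlr12, which sense profilin of Toxoplasma, had 492, 476 and 466 and 808, 886 and 873 CPM in CD103+ DCs. In DP DCs the libraries had 78.4, 74.7 and 69.1 CPM of Tlr11 and 18.1, 16.6 and 12.3 CPM of Tlr12, all below the CD103+ libraries. The higher receptors were Tlr5 for flagellin, Tlr8, Tlr2 and Tlr1. Tlr5 had 8.31, 4.17 and 6.32 CPM in DP and 0.141, 0.344 and 0.0816 CPM in CD103+ DCs (4.89 ± 0.59), and Tlr2 had 27.6, 23.01 and 24.6 CPM against 4.35, 5.66 and 3.47 CPM (2.47 ± 0.20). Myd88, the adaptor of most TLRs, was at 243 ± 18.6 and 147 ± 13.6 CPM and Tlr9, the receptor for unmethylated DNA, at 1.04 ± 0.348 and 1.32 ± 0.267 CPM in DP and CD103+ DCs, and neither was called.

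C-type lectins were mostly higher in DP DCs, with 16 of 27 higher, 4 lower and a median of 2.93. The share called was 74.1%, against 13.6% of all genes. The higher ones included the Cd209 genes above and the Clec4 cluster of Dectin-2 and its relatives. Clec4a4, which encodes the inhibitory receptor DCIR2, had 120.2, 108 and 147 CPM in DP and 0.920, 0.882 and 0.653 CPM in CD103+ DCs (7.23 ± 0.34). Clec4n, which encodes Dectin-2, had 145, 113 and 196 CPM against 1.13, 0.258 and 2.28 CPM (7.09 ± 0.54). Clec7a, the β-glucan receptor Dectin-1, had 353, 312 and 303 CPM against 11.1, 6.32 and 11.7 CPM (5.07 ± 0.23). All DP libraries were above all CD103+ libraries. Clec10a, a lectin for galactose residues, had 77.1, 84.5 and 34.7 CPM against 12.2, 6.95 and 20.8 CPM (2.31 ± 0.40, adjusted p = 3.32e-04) and lost its call with the replicate letter as a block, both with all lamina propria libraries (2.24, adjusted p = 0.046) and with the 6 compared (2.35, adjusted p = 0.096). Clec9a, Clec12a, Clec1b and Ly75, the endocytic receptor DEC-205, were the lower members, and Ly75 was at 42.3 ± 5.59 CPM in DP and 141 ± 10.7 CPM in CD103+ DCs (-1.74 ± 0.16). The call of Clec1b was lost without replicate 3 of the CD103+ libraries (-0.84) and without any single DP library (-1.24 to -1.27, adjusted p = 0.016 to 0.018) and with the block in the fit of the 6 libraries (-1.17, adjusted p = 0.012), against -1.26 with all.

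Sensors of the cytosol and inflammasome genes were higher in DP DCs for 12 of 24 members, with 1 lower and a median of 1.09. The share called was 54.2%, against 13.6% of all genes. Nlrp3 had 64.2, 52.2 and 88.7 CPM in DP and 10.6, 10.8 and 6.81 CPM in CD103+ DCs (2.86 ± 0.30). Casp1, the protease that matures IL-1β and IL-18, had 158, 172 and 157 CPM against 33.1, 30.5 and 23.6 CPM (2.48 ± 0.10). Nod1, a sensor of bacterial peptidoglycan, had 65.2, 58.6 and 56.3 CPM against 3.64, 5.74 and 3.22 CPM (3.81 ± 0.23). Ddx58, the RNA sensor RIG-I, had 44.4, 39.9 and 49.4 CPM against 0.955, 1.61 and 1.55 CPM (5.001 ± 0.23). No library of one sort overlapped the other in these 4 genes. The lower member was Naip1, at 0.0361 ± 0.0373 and 0.635 ± 0.153 CPM, and it was not among the genes tested under the stricter filter on low counts. The adaptor Mavs was at the same level in both sorts, 30.7 and 30.7 CPM, and was not called.

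The cytokine list had 11 higher, 3 lower and 12 uncalled genes among the 26 tested (53.8% called, against 13.6% of all genes). Its median log2 fold change was 1.32, and 1.07 when genes with 3 counts or fewer in both groups were left out and genes at 0 in a whole group were set to the floor of 3 counts over the group. Il1b, the inflammatory cytokine, had 1702, 1362 and 1302 CPM in DP and 38.4, 22.1 and 38.3 CPM in CD103+ DCs. This was a 44.3-fold difference (5.47 ± 0.41, adjusted p = 5.72e-08), and CD11b+ DCs had 1456, 872 and 1521 CPM. Il1a had 55.8, 47.2 and 48.1 CPM against 1.73, 2.43 and 2.28 CPM (4.54 ± 0.51), and Il18 had 25.8, 28.6 and 26.4 CPM against 3.96, 2.39 and 2.53 CPM (3.19 ± 0.22). Il1rn, the antagonist of the IL-1 receptor, had 18.8, 22.7 and 18.99 CPM against 1.49, 1.42 and 0.734 CPM (4.01 ± 0.40), far under the 166 ± 83.6 CPM of CD11b+ DCs. Il1r2, the decoy receptor of IL-1, was higher as well, at 428, 372 and 534 CPM in DP and 5.38, 6.13 and 4.41 CPM in CD103+ DCs (6.37 ± 0.23). Il12b, the shared chain of IL-12 and IL-23, was lower in DP DCs, with 6.67, 7.46 and 10.03 CPM against 62.5, 42.3 and 89.7 CPM (-3.004 ± 0.34, adjusted p = 4.18e-06). Lif, a cytokine of the IL-6 family, had 0.149, 0.0678 and 0 CPM in DP and 4.46, 2.37 and 2.86 CPM in CD103+ DCs (-5.41 ± 0.65).

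Il15 was the third of the lower cytokines, at 11.3 ± 1.52 and 23.4 ± 1.92 CPM in DP and CD103+ DCs. Its log2 fold change of -1.05 ± 0.14 came to -0.94 without replicate 3 of the DP libraries and was then not called. Il22ra2, the soluble inhibitor of IL-22, had 88.4, 92.2 and 47.1 CPM in DP, 17.9, 10.8 and 5.87 CPM in CD103+ and 909.9, 629 and 1914 CPM in CD11b+ DCs. The difference between DP and CD103+ was 2.71 ± 0.46 (adjusted p = 3.64e-04), and with the replicate letter as a block it was 2.73 and not called with all lamina propria libraries (adjusted p = 0.038) and 2.79 and called with the 6 compared (adjusted p = 2.09e-05). Tnf and Il10 were not called, and Il10 was at most 0.230 CPM on average in either sort.

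Chemokine receptors were called in both directions, with 8 higher, 5 lower and 8 uncalled of 21 (61.9% called, against 13.6% of all genes). The median was 0.69 over all and 2.18 without the 2 genes that had 3 counts or fewer in both groups, and it ran from 0.27 without replicate 3 to 1.90 without replicate 2 of the CD103+ libraries. Ccr1, a receptor of inflammatory chemokines, had 725, 602 and 663 CPM in DP and 6.30, 6.65 and 5.26 CPM in CD103+ DCs (6.76 ± 0.30). Ccrl2, which binds chemerin, had 826, 776 and 856 CPM against 33.3, 29.5 and 41.7 CPM (4.56 ± 0.27). Gpr183, the oxysterol receptor EBI2, had 391, 341 and 396 CPM against 80.04, 80.7 and 65.8 CPM (2.32 ± 0.13). DP libraries were above in all 3 genes. Cxcr3, a receptor of interferon-induced chemokines, had 2.87, 2.17 and 1.82 CPM in DP and 123, 149 and 112 CPM in CD103+ DCs (-5.80 ± 0.26). Ccr9, the receptor of the gut chemokine CCL25, had 28.9, 27.1 and 19.8 CPM against 114, 130.2 and 135 CPM (-2.32 ± 0.25). Ccr2, the monocyte chemokine receptor, had 7.23, 8.91 and 3.78 CPM in DP and 100.0, 62.99 and 21.6 CPM in CD103+ DCs (-3.21 ± 0.47), with a wide spread in the latter, and 344 ± 61.2 CPM in CD11b+ DCs. Ccr7, which leads DCs to the lymph node, was at 157 ± 33.9 CPM in DP and 147 ± 27.2 CPM in CD103+ DCs and was not called (0.10 ± 0.28, adjusted p = 0.84).

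Of 23 chemokines 7 were higher and 2 lower (39.1% called, against 13.6% of all genes), with a median of 0.85. Cxcl2, which draws neutrophils, was at 121 ± 26.3 CPM in DP and 6.51 ± 4.45 CPM in CD103+ DCs (4.25 ± 0.75), and Ccl3 at 33.5 ± 2.83 and 2.06 ± 1.16 CPM (4.10 ± 0.44). Cxcl9, a ligand of CXCR3, had 37.4, 41.99 and 36.3 CPM in DP and 118, 139 and 136 CPM in CD103+ DCs (-1.76 ± 0.18). The other lower chemokine was Xcl1, at 0.208 ± 0.203 and 1.46 ± 0.402 CPM (-2.78 ± 0.68). The call of Xcl1 was lost with the replicate letter as a block in the fit of all lamina propria libraries (-2.91, adjusted p = 0.0496) but not in that of the 6 compared (-2.96, adjusted p = 0.0048), and it was lost without replicate 1 or 3 of the DP libraries (-2.49 and -2.38) and without replicate 1 or 2 of the CD103+ libraries (-2.74 and -2.59).

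Of 17 genes of MHC class II presentation 5 were higher in DP DCs and none lower (29.4% called, against 13.6% of all genes), with a median of 0.24. The called genes were H2-Eb2, H2-DMb2, H2-Oa, Ctss and Ifi30. H2-DMb2, a chain of the peptide-loading molecule H2-DM, had 1197, 1194 and 935 CPM in DP and 238, 242 and 227 CPM in CD103+ DCs (2.23 ± 0.13). H2-Oa, a chain of its inhibitor, was at 373 ± 22.8 and 154 ± 7.96 CPM (1.28 ± 0.12). Ctss, the protease that cleaves the invariant chain, had 1388, 1344 and 1251 CPM against 518, 537 and 489.6 CPM (1.37 ± 0.09). H2-Aa, H2-Ab1, H2-Eb1 and Cd74, the invariant chain, were not called, and Cd74 was at 47148 ± 2100 and 38078 ± 1728 CPM (0.31 ± 0.10). Among the 12 uncalled genes, March1, a ubiquitin ligase for MHC class II, was called lower without replicate 2 of the CD103+ libraries (-1.07, against -0.97 with all libraries). In MHC class I presentation 2 of 19 genes were lower and none higher, so that the share called, 10.5%, was near that of all genes. The median was -0.40. DP libraries lay wholly below in 14 of the 19 genes and wholly above in 1, against 3814 and 4057 of the 17074 genes tested. The summed level was 13165 to 15171 CPM in the DP and 16604 to 18243 CPM in the CD103+ libraries. Tap1, a chain of the peptide transporter, had 303, 317 and 258 CPM in DP and 897, 960.4 and 896 CPM in CD103+ DCs (-1.65 ± 0.09). Psmb9, a subunit of the immunoproteasome, stood at the 2-fold limit, with 424 ± 38.05 and 857 ± 41.7 CPM (-1.02 ± 0.09), and was not called without replicate 3 of the DP libraries (-0.95) or replicate 2 of the CD103+ libraries (-0.98). The heavy chains H2-K1 and H2-D1 were not called (0.19 ± 0.11 and 0.04 ± 0.10).

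The list of endolysosomal proteases was higher in DP DCs for 11 of 20 members and lower for 2, with a median of 1.28. Its share called was 65%, against 13.6% of all genes. The lysosomal genes Psap, Ppt1 and Naaa, lower in DP DCs as given above, are not on this list. Ctsc, the protease cathepsin C, had 799.9, 713 and 805 CPM in DP and 147, 119 and 106 CPM in CD103+ DCs (2.64 ± 0.17), and Lgmn, the asparaginyl endopeptidase, was at 157 ± 11.4 and 25.1 ± 0.0722 CPM (2.64 ± 0.10). The lower members were Cst3, described above, and Ctse, cathepsin E, at 0.348 ± 0.152 and 2.01 ± 0.331 CPM. Genes of the NADPH oxidase and Fc receptors were higher for 9 of 16 members and lower for 2 (68.75% called), with a median of 1.48. Cybb, the catalytic chain of the oxidase, had 497, 478 and 545 CPM in DP and 9.62, 9.12 and 6.65 CPM in CD103+ DCs (5.90 ± 0.23, adjusted p = 3.53e-12). Its partner Cyba, which other oxidases share, was not called, at 555 ± 53.2 and 641 ± 16.6 CPM (-0.21 ± 0.11). Fcer1g, the signalling chain of Fc receptors and several lectins, had 420.4, 427 and 387 CPM against 11.1, 9.91 and 8.81 CPM (5.37 ± 0.13), and the low-affinity IgG receptor Fcgr3 had 135, 115 and 161 CPM against 2.72, 1.66 and 6.04 CPM (5.36 ± 0.38). The lower members were Fcrla and Fcgrt, the neonatal Fc receptor (-1.27 ± 0.19).

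Of 26 costimulatory and checkpoint genes 8 were higher and 2 lower (38.5% called, against 13.6% of all genes), with a median of 0.69. Cd274, which encodes PD-L1, had 153, 149 and 174 CPM in DP and 38.4, 29.5 and 39.2 CPM in CD103+ DCs (2.15 ± 0.16). Lgals9, which encodes galectin-9, was at 248 ± 19.05 and 21.8 ± 1.39 CPM (3.50 ± 0.19). Cd86, the ligand of CD28 and CTLA-4, was lower, with 166, 159.8 and 203 CPM in DP and 512, 514 and 646 CPM in CD103+ DCs (-1.66 ± 0.14, adjusted p = 3.28e-08), whereas Cd80 and Cd40 were not called (0.55 ± 0.18 and 0.58 ± 0.12). Of 17 genes of DC maturation, 1 was higher (Socs2, an inhibitor of cytokine signalling, 1.98 ± 0.23) and 1 lower (Cd86), with a median of 0.57. The share called, 11.8%, was near the 13.6% of all genes. Of the chemokine genes on the maturation list, Ccl22 was called higher without replicate 1 of the DP libraries (1.08, against 0.85 with all) and Ccl5 without replicate 1 of the CD103+ libraries (1.23, against 0.73). Of 23 growth factor and cytokine receptors 8 were higher and 2 lower (43.5% called), with a median of 0.43. Csf2rb, the common β chain of the GM-CSF receptor, had 439, 394 and 451 CPM against 154, 125 and 158 CPM (1.55 ± 0.14). The receptor Flt3, on which all conventional DCs depend, was at 397 ± 8.77 and 624 ± 36.5 CPM and was not called (-0.65 ± 0.08), since the difference was under 2-fold although its adjusted p was 4.08e-06. The lower receptors were Ifngr1 and Ifnar1, of interferon-γ and of type I interferons (-1.42 ± 0.08 and -1.15 ± 0.11).

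Retinoic acid and TGF-β are a pair of signals known for gut DCs. Of 17 tested genes of retinoic acid, 1 was higher and 2 lower (17.6% called, against 13.6% of all genes), with a median of 0.06. Besides Cyp26b1, the dehydrogenase Dhrs9 was lower (-1.51 ± 0.22) and the retinal reductase Dhrs3 higher (1.44 ± 0.11). Aldh1a2, the enzyme that makes retinoic acid in gut DCs, had 189.5, 167 and 178 CPM in DP and 256, 198 and 274 CPM in CD103+ DCs. Its libraries did not overlap but the difference was not called (-0.44 ± 0.19, adjusted p = 0.082), and CD11b+ DCs had 101 ± 4.68 CPM. Of 23 genes of TGF-β, 1 was higher and 4 lower (21.7% called), and the median was 0.01. The inhibitor Smad7 was higher (1.82 ± 0.17), and Itgb8, the integrin chain that activates TGF-β, was lower, with 0.596, 0.542 and 0.964 CPM in DP and 3.15, 1.83 and 4.85 CPM in CD103+ DCs (-2.19 ± 0.37). Acvrl1, a type I receptor of the family, was at 57.02 ± 5.38 and 301 ± 13.1 CPM (-2.40 ± 0.13). The medians of both lists lay near 0 and ran from -0.21 to 0.077 and from -0.065 to 0.056 when single libraries were left out. Tgfbr1 and Tgfbr2, the receptors of TGF-β itself, were not called (0.33 ± 0.20 and 0.28 ± 0.18).

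Of 21 integrin chains 2 were higher, Itgam and Itga9, and 5 were lower, with a median of -0.37. The share called was 33.3%, against 13.6% of all genes. Itga8 had 1.01, 0.746 and 0.464 CPM in DP and 24.6, 19.6 and 31.1 CPM in CD103+ DCs (-5.08 ± 0.44), and Itga6, a laminin receptor chain, had 0.857, 0.373 and 0.2498 CPM against 18.3, 15.9 and 13.5 CPM (-5.01 ± 0.58). Itga3, Itga1 and Itgb8 were the other lower chains. Itgb7, which pairs with CD103 and with the gut homing chain α4, was not called, at 757 ± 153 and 809 ± 194 CPM (-0.10 ± 0.25). Of 24 Notch pathway genes 3 were higher and 4 lower (29.2% called, against 13.6% of all genes), with a median of 0.19. Hes1, a target of Notch, was lower in DP DCs, with 1.83, 1.19 and 1.21 CPM against 23.9, 25.1 and 32.2 CPM in CD103+ and 15.8, 10.7 and 19.6 CPM in CD11b+ DCs (-4.26 ± 0.31, adjusted p = 9.32e-09). The ligand Jag2 was lower too, at 8.79 ± 2.11 and 69.95 ± 5.15 CPM (-2.99 ± 0.22), while Rbpj, the DNA-binding factor of the pathway, was not called (-0.17 ± 0.10).

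Genes induced by interferon moved in both directions, with 15 higher and 7 lower in DP DCs of 32 and a median of 0.87. The share called was 68.75%, against 13.6% of all genes. The higher members included guanylate-binding proteins. Gbp7 had 115, 80.96 and 121 CPM in DP and 3.997, 3.29 and 2.82 CPM in CD103+ DCs (4.97 ± 0.27), and Gbp3 was at 164 ± 14.8 and 6.73 ± 1.31 CPM (4.60 ± 0.12). Oas1a and Oasl2, sensors of double-stranded RNA or their relatives, were higher by 3.65 ± 0.20 and 3.53 ± 0.17 on the log2 scale. Among the lower members, Ifi205, a nucleic acid sensor of the AIM2-like family, had 19.4, 21.9 and 13.6 CPM in DP and 445, 469 and 452 CPM in CD103+ DCs (-4.64 ± 0.23). Irf7, the regulator of type I interferon genes, had 21.8, 22.5 and 20.3 CPM against 80.1, 79.98 and 84.7 CPM (-1.92 ± 0.17). Irf9, which carries the signal of type I interferons, was not called (-0.80 ± 0.10).

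None of the 24 cell cycle genes was called, and their median log2 fold change was 0.11. Mki67, the proliferation marker Ki-67, had 46.6, 54.8 and 63.4 CPM in DP and 73.1, 57.1 and 62.9 CPM in CD103+ DCs, with libraries that overlapped. Genes induced early by stimuli and by tissue digestion were higher in DP DCs for 11 of 21 members and lower for none. Their median was 1.23, and the share called was 52.4%, against 13.6% of all genes. Atf3, a stress-induced factor, had 1497, 1382 and 1083 CPM in DP and 122, 123 and 160.5 CPM in CD103+ DCs (3.29 ± 0.31). Zfp36, which destabilises cytokine transcripts, had 4431, 4302 and 3773 CPM against 1175, 978 and 1061 CPM (1.96 ± 0.11), and Nr4a1 had 1380, 1152 and 1152 CPM against 244, 144 and 298 CPM (2.43 ± 0.40). Fos, by contrast, was at 2634 ± 472 and 2414 ± 221 CPM and was not called (0.13 ± 0.17). The heat shock genes Hspa1a and Hspa1b, near-identical copies whose counts are uncertain, were not called at -2.13 ± 0.57 and -2.26 ± 0.65, and were called lower with the replicate letter as a block with all lamina propria libraries (-2.19 and -2.34, adjusted p = 2.11e-04 and 5.41e-05) and with the 6 compared (-2.15 and -2.31, adjusted p = 4.52e-04 and 3.16e-04). The summed level of the early genes was 21933 to 26234 CPM in the DP and 9411 to 10703 CPM in the CD103+ libraries, and its part in the level of Il1b, Cxcl2, Ccl3 and the other inducible genes above was not tested.

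Among markers of other cells, those of macrophages were the ones most often called. Of 12 macrophage markers 10 were higher in DP DCs and none lower (83.3% called, against 13.6% of all genes), and the median was 2.37. With the replicate letter as a block, 8 of 12 were higher with all lamina propria libraries and 9 of 11 with the 6 compared. The summed level of the markers was 2653 to 3587 CPM in DP, 834 to 897 CPM in CD103+ and 7353 to 18349 CPM in CD11b+ DCs. Most of the sum was Lyz2, the lysozyme of myeloid cells, with 3007, 3092 and 2152 CPM in DP and 811, 759 and 756 CPM in CD103+ DCs (1.83 ± 0.26, adjusted p = 3.02e-05), a call lost with the replicate letter as a block in the fit of all lamina propria libraries (1.83, adjusted p = 0.018) and kept in that of the 6 compared (1.81, adjusted p = 1.39e-05). Adgre1, which encodes F4/80, had 210.1, 177 and 201 CPM against 29.04, 27.1 and 18.1 CPM (2.98 ± 0.24), above the 95.4 ± 23.6 CPM of CD11b+ DCs. The complement gene C1qa had 20.7, 21.1 and 18.02 CPM in DP, 2.19, 1.83 and 4.90 CPM in CD103+ and 163, 113 and 311 CPM in CD11b+ DCs. In 11 of the 12 markers the DP libraries lay wholly above the CD103+ libraries, which over all genes held for 4057 of 17074. Mertk, Cd163 and Fcgr1, the last of them called higher, were at 0.316, 1.503 and 1.38 CPM in DP, 0.0118, 0.453 and 0.257 CPM in CD103+ and 2.91, 21.1 and 9.79 CPM in CD11b+ DCs. Mertk and Cd163 were not called with all libraries and were called higher without replicate 3 of the DP libraries (Mertk, adjusted p = 9.57e-04) and without replicate 3 of the CD103+ libraries (Cd163, adjusted p = 0.0065). The part of macrophages in the other differences was not tested. In bulk samples more cells of a type and more RNA per cell cannot be told apart.

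Summed over their lists, T cell markers were at 4.74 to 17.6 CPM in DP and 5.50 to 10.9 CPM in CD103+ DCs, with Thy1 of 12 called higher. Markers of B and plasma cells were at 2076 to 2270 and 2353 to 3950 CPM, with Ms4a1 of 11 called lower, and Igha and Igkc made up most of the sum. Epithelial markers were at 31.9 to 134 and 35.3 to 72.98 CPM, with Fabp1 of 11 called lower, a call lost without replicate 1 (-1.34) or replicate 2 (-1.51) of the DP libraries. The granulocyte and mast cell list summed to 118 to 185 CPM in DP and 4.04 to 6.97 CPM in CD103+ DCs. Siglecf and Csf3r of 10 were called higher, and the median was 2.53. With an adjusted p under 0.05, and with the test of DESeq2, 4 of 10 were called higher. S100a9 was not called with all libraries and was called higher without replicate 2 of the DP libraries (5.56, adjusted p = 0.0059). DP libraries lay wholly above in 5 of the 10, against 4057 of the 17074 genes tested. Siglecf, a lectin of eosinophils, had 152, 109.6 and 179 CPM in DP and 4.56, 2.97 and 5.10 CPM in CD103+ DCs (5.14 ± 0.62). Of the other eosinophil genes, Prg2 was at 0.490 CPM in DP and 0.954 CPM in CD103+ DCs, Ccr3 at 0.226 and 0.0272 CPM, and Epx had 0 counts in DP and 1 in CD103+ DCs. The stroma and endothelium list summed to 104 to 116 and 8.52 to 12.7 CPM, with Pecam1 of 11 called higher at 102, 98.5 and 110.0 CPM against 4.46, 5.08 and 2.90 CPM (4.62 ± 0.21). The endothelial cadherin Cdh5 was at 0.411 and 0.531 CPM. The list of innate lymphoid and NK cells summed to 78.3 to 83.5 and 15.5 to 22.1 CPM, with Tbx21 and Il7r of 12 called higher. Tbx21, which encodes T-bet, had 57.8, 57.7 and 60.1 CPM against 5.55, 6.67 and 6.16 CPM (3.25 ± 0.25), and the NK cell genes Ncr1 and Eomes were at 0.0594 and 0 CPM in DP and 0.217 and 0.0215 CPM in CD103+ DCs. Plasmacytoid DC markers summed to 136 to 152 and 129 to 154 CPM, with Upb1 and Lair1 of 8 called higher and Ccr9 lower. The share called was 8.33% for T cell markers and 9.09% each for B and plasma cell, epithelial and stromal markers. It was 16.7% for innate lymphoid and NK cell, 20% for granulocyte and mast cell and 37.5% for plasmacytoid DC markers. Over all genes it was 13.6%, so most of these lists were near or below that share. The part of these cells in the other differences was not tested.

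The same comparison in the lymph node differed from that in the lamina propria for many genes. In a test of the difference itself, 1435 of the 17074 genes were called (8.40%), 718 more positive and 717 more negative in the lamina propria. Ppt1 was -4.48 ± 0.15 in the lamina propria and 0.07 ± 0.13 in the lymph node, where DP and CD103+ DCs had 386 ± 76.7 and 368 ± 37.6 CPM (difference -4.54 ± 0.19, adjusted p = 5.26e-11). Irf4 was 3.65 in the lamina propria and 0.65 ± 0.16 in the lymph node (difference 2.998 ± 0.23, adjusted p = 7.01e-08). Sirpa was higher in DP DCs of both tissues, by 6.53 and by 3.41 ± 0.16 (difference 3.13 ± 0.22, adjusted p = 2.29e-08). Cd209a was 7.30 in the lamina propria and 1.43 ± 0.36 in the lymph node, where both sorts were low at 9.52 ± 2.10 and 3.49 ± 1.59 CPM (difference 5.86 ± 0.50). Ccr2 was lower in DP DCs of the lamina propria and higher in those of the lymph node, by -3.21 and 1.88 ± 0.47 (difference -5.09 ± 0.66, adjusted p = 7.22e-05). H2-DMb2 showed 2.23 and 2.46 ± 0.13 and was not called as different between tissues (-0.23 ± 0.17).

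The markers of the sort also differed between the tissues. In the lymph node Itgae was at 46.1 ± 4.35 CPM in DP and 35.4 ± 7.28 CPM in CD103+ DCs, and Itgam at 5.16 ± 0.517 and 0.438 ± 0.391 CPM. Xist was at most 0.285 CPM in the lamina propria and 15.3 to 89.02 CPM in the lymph node libraries, and Ddx3y was at 50.01 to 74.3 CPM in the former and 0 to 57.97 CPM in the latter, so that the animals differed with the tissue. Tissue, animals and sorting of the node cannot be told apart in the difference.

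**Figure D5:**
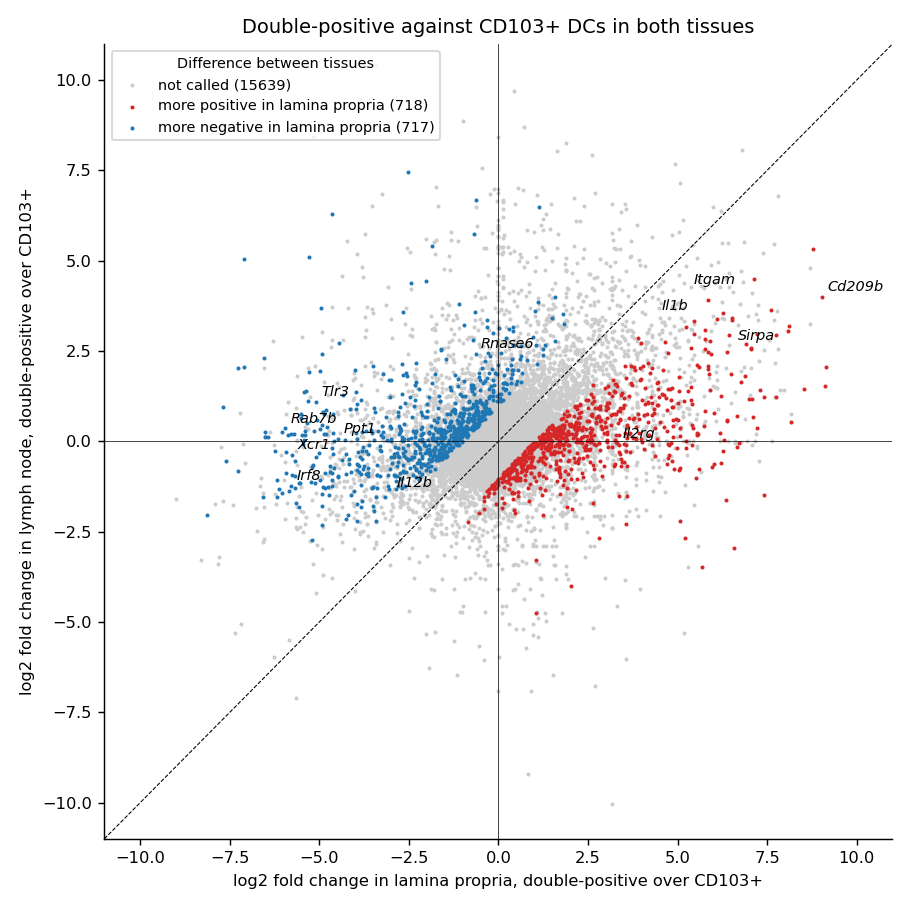
Each point is 1 of the 17074 genes tested, with its log2 fold change of DP over CD103+ DCs in the lamina propria on the x axis and in the lymph node on the y axis; the dashed line marks equal values. Red and blue points are the 718 and 717 genes called more positive and more negative in the lamina propria, and Irf8, Xcr1, Tlr3 and Rab7b lie far to the left and nearer to 0 on the y axis.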

How the data were processed

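RNA-seq of dendritic cells sorted from CD11a KO mice of the strain C57BL/6J was analysed from the deposited table of counts per gene. Per the labels and the submitters' processing notes, libraries were made with a SMART-Seq v4 kit for low amounts of RNA and sequenced on the HiSeq4000, and the authors used FastQC 0.11.7, STAR 2.6 and the build GRCm38 before depositing the whole-number counts. Use of strand, the gene annotation and the handling of reads with several matches are not given in the sources used here.

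From the counts, genes were kept with filterByExpr over the 6 groups of the series and library sizes were scaled with TMM. A negative binomial model of all 18 libraries, which share the estimate of the spread, was fitted with edgeR 4.0.16 (limma 3.58.1, R 4.3.3), and the DP and CD103+ groups of the lamina propria were compared with the quasi-likelihood test, with Benjamini-Hochberg adjustment. The difference between tissues was the interaction of sort and tissue in the same fit. SEs are the log2 fold change divided by the square root of F. All 6 libraries entered every main value, and none was imputed. The steps were tested on simulated data.

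The members and lists were chosen with earlier results of these data known. Named genes were the 12 of largest fold in each direction and the 8 of largest difference in mean CPM in each direction, among called genes with libraries that did not overlap and whose higher group averaged 10 CPM or more, leaving out unnamed gene models and immunoglobulin or T cell receptor segments, then the 6 genes of smallest p in the test between tissues, Itgal and examples from 32 lists, which include the sorting markers. The genes of the Cd209 cluster outside these rules, Xist and Ddx3y were chosen after their values were seen. Positions are from GENCODE vM21 (GRCm38), and promoters from RefSeq (GRCm38.p6).

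The replicate letter may pair the samples, and the main fit did not use it. Correlations between lamina propria libraries of the same letter were all above 0 but small, at 0.0750 to 0.250. Deviations from the group means correlated at 0.157, 0.125 and 0.189 between DP and CD103+ libraries of the same letter. Between those of other letters they correlated at -0.131 to -0.00936. With CD11b+ libraries of the same letter the values were 0.152, 0.196 and 0.208 for CD103+ and 0.212, 0.0750 and 0.250 for DP libraries. With CD11b+ libraries of other letters they ran from -0.138 to -0.0507 and from -0.269 to 0.0880. Deviations sum to 0 within a group, so values above 0 for the same letters draw those of other letters below 0. DP replicate 2 correlated at 0.0880 with replicate 1 and at 0.0750 with replicate 2 of the CD11b+ DCs. Fits with the letter as a block therefore stand beside named genes whose call they change. Libraries of a group differed by more than sampling noise (chi-square of 14.9 to 33.4 per gene). Other alternatives were DESeq2 size factors, total counts, the test of DESeq2 1.42.0, other filters on low counts, thinning to equal depth, fits of fewer libraries, an adjusted p of 0.05 and leaving out each library.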

Additional observations from a re-analysis of the deposited data

Results flagged for a closer look

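The difference between DP and CD103+ DCs itself differed between lamina propria and lymph node for 1435 genes in the test of the interaction, and the 6 of smallest p are given here. Values are log2 differences, lamina propria minus lymph node, of the log2 fold change of DP over CD103+.

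Tlr3 differed by -6.19 ± 0.20 (adjusted p = 1.99e-12, edgeR quasi-likelihood test), with 17.7, 16.5 and 21.4 CPM in the DP and 9.08, 10.3 and 6.57 CPM in the CD103+ libraries of the lymph node. Rab7b differed by -6.32 ± 0.23, with 31.9, 51.8 and 44.6 CPM and 33.6, 33.1 and 33.4 CPM there, and Xcr1 differed by -5.39 ± 0.21, with 53.2, 85.7 and 87.6 CPM and 95.2, 103 and 94.9 CPM. Irf8 differed by -4.57 ± 0.13, and in the lymph node it had 618, 749 and 701 CPM in the DP and 1635, 1656 and 1554 CPM in the CD103+ libraries, which did not overlap. These 4 genes are cDC1 markers, and their difference in the lymph node was between -1.23 and 1.10 on the log2 scale.

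Rnase6, an antimicrobial ribonuclease, differed by -3.07 ± 0.11, with 489.9 and 762 CPM in DP and CD103+ DCs of the lamina propria and 569 and 105 CPM in those of the lymph node. Il2rg, the common γ chain of cytokine receptors, differed by 3.36 ± 0.11. In the lamina propria it had 197, 205 and 179.6 CPM in DP and 20.6, 18.9 and 19.5 CPM in CD103+ DCs (3.30 ± 0.08), and in the lymph node 316, 315 and 341 and 333, 337 and 343 CPM. Tissue and animals cannot be told apart in these differences.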

How the results depend on the processing

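The count of changed genes stayed within 1.5 times the reported one under every alternative run, from 1925 with the stricter filter on low counts to 2904 with an adjusted p of 0.05, and from 2105 to 2172 when single libraries were left out, and the share of calls that were higher in DP DCs from 57.8% to 60.7%. With the replicate letter as a block, 2182 genes (2066 of them among the 2326) were called in the fit of all lamina propria libraries. In the fit of the 6 compared, 2099 (1999) were called. Of the genes named, the block changed the calls given beside them only. The count for the difference between tissues ran from 1297 to 1995, with 1498 under the block. Counts of lists moved with the block as well, in part with the members tested. In the fits of all lamina propria libraries and of the 6 compared, cDC2 markers called higher were 17 and 16 of 22, in place of 18. Lectins called higher were 14 of 25 and 12 of 23, in place of 16 of 27. Chemokines called higher went up, to 9 of 21 in the former fit, from 7 of 23. Of 599 genes followed, 530 kept their side of the threshold under every alternative that tested them, and 34 lost a call and 35 gained one under some. Where a gene was called in the main fit or in the alternative, 0 changed direction. The sign of genes called in neither fit was not followed.

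Medians of lists moved more, in part because the filters change which members were tested. For the granulocyte and mast cell list the median of 2.53 was 1.03 with no filter, 1.68 with the stricter filter, 2.12 after thinning, 2.25 with DESeq2, 4.93 with the 6 libraries only, 4.94 with lamina propria only and 4.71 and 4.84 with the block. For chemokine receptors (0.69) these were 0.19, 1.44 and 2.25, then 1.42, 2.23, 2.00 and 1.51. For TGF-β genes (0.01) they were 0.072 and 0.21 with the 2 filters and below 0 with fewer libraries (-0.017 and -0.0547) and the block (-0.0548 and -0.020). The Notch median (0.19) was 0.41, 0.055, 0.053 and 0.13, and 0.064 with the block of 6 libraries. The endolysosomal protease median (1.28) was 1.35, 1.36, 1.36 and 1.35, and 1.17 and 1.19 with the block. The median of integrins was -0.50 with the stricter filter, -0.50 with lamina propria only and -0.49 with the block, that of NADPH oxidase and Fc receptors 2.02 and 2.43 with the block, that of lectins 3.17 with lamina propria only and that of transcription factors 0.66 after thinning. The causes were not tested.

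When single libraries were left out, medians ran from 0.56 to 0.65 for transcription factors, 1.04 to 1.13 for cytosolic sensors and 3.93 to 4.28 for cDC2 markers. They ran from 0.52 to 0.64 for sorting markers, 0.74 to 1.22 for chemokines and 0.27 to 1.90 for chemokine receptors. For costimulation they were 0.55 to 0.90 and for integrins -0.47 to -0.31. For endolysosomal proteases they were 1.17 to 1.33 and for NADPH oxidase and Fc receptors 1.24 to 2.02. They crossed 0 for TGF-β genes (-0.065 to 0.056), retinoic acid genes (-0.21 to 0.077), Notch genes (-0.0012 to 0.19), epithelial markers (-0.80 to 0.81), innate lymphoid and NK cell markers (-0.14 to 1.14) and stromal markers (-0.22 to 0.50), and ran from 1.55 to 3.71 for granulocyte and mast cell markers. Genes under about 1 CPM rest on few counts, and 3 libraries a group limit what can be called.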

Other observations

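Other members of the lists had too few counts to be tested. Over the 6 libraries, Ly6g, Ifnb1, Crabp1, Cyp26a1 and Vtcn1 had 0 counts in each. Pdpn, a stromal gene, had 14, 5 and 8 counts in the DP libraries and 0, 0 and 3 in the CD103+ libraries, and Ccl11, the eosinophil chemokine, had 2, 0 and 1 counts against 5, 6 and 11. Ackr4, a scavenging receptor of homeostatic chemokines, had 1, 3 and 2 counts in DP and 5, 10 and 2 in CD103+ DCs.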
